A study of Homo sapiens with 20 samples.

Results

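The protein-coding genes of chromosome 5 were examined by chromosome arm and band in human NTERT keratinocytes, with GCN2KO compared with WT in unwounded cells and after wounding. They are 861 of the 18728 protein-coding autosomal genes and of the 57500 genes listed, 141 on the short arm (5p) and 720 on the long arm (5q). A gene was placed on the short arm when its start lay below 48.8 Mb of GRCh38, by the GENCODE annotation of its Ensembl identifier. The chromosome was chosen by its measured GCN2KO to WT differences in these same samples, so every value of that contrast on chromosome 5 is a description and carries no test. The tested genes next to the arm boundary were MRPS30 on 5p and EMB on 5q, with log2 fold changes of 0.60 and 0.59 for MRPS30 and -0.21 and 0.01 for EMB in unwounded and wounded cells. Of the 861 genes, 583 passed the filter on low counts in unwounded cells (89 on 5p, 494 on 5q) and 594 after wounding (92 on 5p, 502 on 5q), and 86 had no count in any of the 20 libraries.

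NTERT cells are an established line of human keratinocytes kept dividing by telomerase (hTERT), and all 4 groups carry it. WT cells received a control guide, and GCN2KO cells were edited with CRISPR/Cas9 against EIF2AK4, the gene of the eIF2 kinase GCN2, and used as an early-passage pool that is not a single clone. Cells were differentiated into sheets with serum and calcium and then left unwounded or harvested 6 h after high-density wounding (HDW), in which a grid of scratches is drawn through the sheet. The unwounded and HDW cells of each genotype gave 5 libraries per group, with 14083504 to 34611570 counts per library. Per the study's methods, cells were plated in replicates of 5, and it is not stated whether these were independent experiments, so the errors below may in part be technical. The study does not state which of its guide pools was sequenced, or whether several were. Loss of GCN2 and any other difference between the WT and GCN2KO cells therefore cannot be told apart. DNA copy number was not measured in these samples.

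GCN2 phosphorylates the translation factor eIF2 when uncharged tRNAs accumulate, which lowers protein synthesis and raises translation of ATF4, an activator of amino acid transporter, aminoacyl-tRNA synthetase and stress genes. Chromosome 5 carries several genes of that program, among them TARS1 and LARS1, which charge tRNAs with threonine and leucine. It also carries the clustered protocadherins, the immediate early gene EGR1, cytokine and cytokine receptor genes, and TERT near the end of the short arm. Genes along a chromosome are mostly regulated one by one, so the level of a whole arm is read against the other arms.

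The mRNA of the targeted gene, EIF2AK4 on chromosome 15, was lower in every GCN2KO library. Its normalized counts were 4404, 4152, 4555, 4287 and 4379 in WT unwounded and 806, 859.9, 935, 906 and 962 in GCN2KO unwounded replicates 1 to 5. After HDW they were 4303, 4222, 4181, 4282 and 3980.2 in WT and 935, 809.8, 858, 951 and 814 in GCN2KO replicates. The groups did not overlap in either state, and the log2 fold change was -2.28 (SE 0.065) in unwounded and -2.27 (SE 0.052) in wounded cells. All 8 keratinocyte markers were detected, with summed normalized counts of 353170 to 364046 in WT unwounded, 398235 to 466291 in GCN2KO unwounded, 390747 to 416982 in WT HDW and 477596 to 521659 in GCN2KO HDW libraries. The 6 fibroblast markers summed to 664 to 1039 over the 20 libraries and the 4 melanocyte markers to 56.5 to 100.3, with 1 of them at 0 throughout. The 4 leukocyte markers, also with 1 at 0 throughout, summed to 37.6 to 57.1 in WT unwounded, 73.9 to 116 in GCN2KO unwounded, 62.2 to 76.8 in WT HDW and 88.1 to 111 in GCN2KO HDW libraries. The 3 endothelial markers summed to 1.53 to 18.2. The part of the higher keratinocyte and leukocyte sums in the values below was not tested. In bulk RNA a shift of one size in every cell and a larger shift in some of the cells cannot be told apart.

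4 promoter sequences are shown for genes the results turn on, as RefSeq windows of GRCh38.p14 that run 250 bases before to 50 bases after an annotated start, written 5′ to 3′. Of the 861 genes, 758 had at least 1 such window. Capitals mark matches, on either strand, to a TATA box (TATAAA), an AP-1 element (TGANTCA), a C/EBP-ATF response element (TGATGNAA), which ATF4 can bind, or a CArG box, which serum response factor binds and which can contain a TATA box. IL7R and MAP1B are shown because they are among the 5 genes furthest above their neighbours, and EGR1 and FST because HDW raised them in WT cells. Other genes fit these reasons and are not shown. Of these, the windows of SLIT3 and STC2 held no match, and PRR16 and TSLP each had windows with and without a match. A further MAP1B window, with a TATA box, is also not shown. Every window shown holds a match, so they do not stand for the rest.
IL7R, chr5:35856641-35856940, plus strand: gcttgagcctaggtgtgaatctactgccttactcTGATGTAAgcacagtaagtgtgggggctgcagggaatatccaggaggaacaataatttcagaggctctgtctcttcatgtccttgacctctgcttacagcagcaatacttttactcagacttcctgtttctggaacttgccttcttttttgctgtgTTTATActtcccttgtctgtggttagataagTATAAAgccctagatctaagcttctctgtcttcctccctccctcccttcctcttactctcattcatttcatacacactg
MAP1B, chr5:72107225-72107524, plus strand: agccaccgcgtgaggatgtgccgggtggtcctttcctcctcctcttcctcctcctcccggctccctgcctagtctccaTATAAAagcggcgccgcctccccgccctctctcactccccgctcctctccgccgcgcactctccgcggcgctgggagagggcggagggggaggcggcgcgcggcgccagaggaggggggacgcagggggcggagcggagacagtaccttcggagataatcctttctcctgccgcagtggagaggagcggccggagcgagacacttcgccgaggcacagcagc
EGR1, chr5:138465229-138465528, plus strand: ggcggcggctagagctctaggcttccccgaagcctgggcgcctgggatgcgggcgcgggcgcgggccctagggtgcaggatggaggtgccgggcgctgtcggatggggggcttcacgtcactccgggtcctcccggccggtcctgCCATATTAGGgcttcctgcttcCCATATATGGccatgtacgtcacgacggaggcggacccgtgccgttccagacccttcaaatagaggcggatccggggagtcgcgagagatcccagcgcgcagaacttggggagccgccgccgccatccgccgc
FST, chr5:53480379-53480678, plus strand: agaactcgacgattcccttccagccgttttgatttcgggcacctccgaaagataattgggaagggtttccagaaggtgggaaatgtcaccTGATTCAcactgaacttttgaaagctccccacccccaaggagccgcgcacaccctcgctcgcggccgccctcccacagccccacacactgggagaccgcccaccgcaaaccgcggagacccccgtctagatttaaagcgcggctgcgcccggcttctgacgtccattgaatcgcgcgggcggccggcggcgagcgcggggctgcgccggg
The IL7R window held 2 TATA box matches and 1 C/EBP-ATF match, the MAP1B window 1 TATA box, the EGR1 window 2 CArG boxes and the FST window 1 AP-1 match. Over all 35116 RefSeq windows, 11.5% held a TATA box, 7.71% an AP-1 element, 3.62% a C/EBP-ATF element and 1.29% a CArG box. Over the 1055 windows of chromosome 5 genes the shares were 8.72%, 5.5%, 3.13% and 1.33%. The AP-1 pattern used here allows any base at its centre, and the FST match has a T there. A match describes the letters only.

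Both arms of chromosome 5 were higher in GCN2KO than in WT cells, before and after wounding. In unwounded cells the median log2 fold change of the tested genes was 0.38 on 5q and 0.25 on 5p. After HDW it was 0.40 on 5q and 0.34 on 5p. These were the highest and second highest of the 39 autosome arms with at least 20 tested protein-coding genes in both states. The other 37 arms ran from -0.12 (22q) to 0.12 (8p) in unwounded cells and from -0.17 (19p) to 0.10 (18p) after HDW, and the tested genes of all other autosomes had a median of -0.01 and -0.02. The share of genes above 0 was 68.5% on 5p and 74.7% on 5q in unwounded cells, where the other arms spanned 41.5% to 59.1%. After HDW it was 72.8% and 78.3%, against 37.5% to 56.2% on the other arms.

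**Figure D1:**
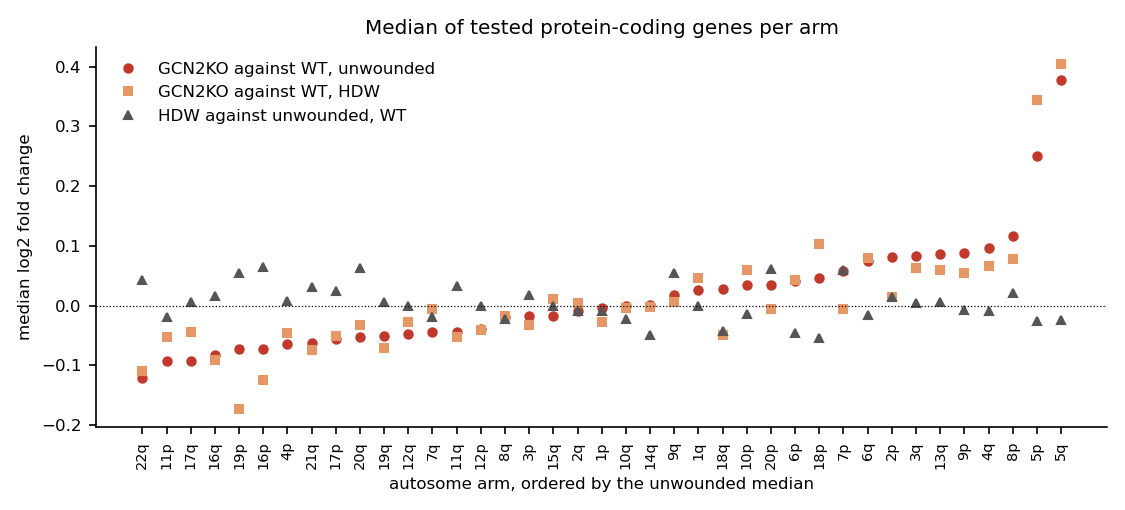
Median log2 fold change of the tested protein-coding genes of each of 39 autosome arms (y axis), ordered by the unwounded median (x axis), for GCN2KO against WT in unwounded cells (circles) and after HDW (squares) and for HDW against unwounded WT cells (triangles). The circles and squares of 5p and 5q lie between 0.25 and 0.40, above every other arm, and their triangles lie at -0.03.

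The shift was larger than the spread between libraries. With each gene set to its mean in WT unwounded cells, the median log2 level of 5q was 0.38 ± 0.03 in GCN2KO unwounded and 0.36 ± 0.01 in GCN2KO HDW libraries (SD, n = 5). It was 0.0036 ± 0.011 in WT unwounded and -0.02 ± 0.01 in WT HDW libraries (SD, n = 5). The 10 GCN2KO libraries ran from 0.34 to 0.41 on 5q, and the 10 WT libraries from -0.03 to 0.02. On 5p the level was 0.26 ± 0.04 in GCN2KO unwounded and 0.31 ± 0.04 in GCN2KO HDW libraries (SD, n = 5), with a lowest value of 0.19 and a highest of 0.35. The WT libraries lay between -0.02 and 0.05 on 5p. No GCN2KO library overlapped a WT library on either arm.

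As a share of all counts on protein-coding autosomal genes, 5q was higher, from 3.81% ± 0.02 in WT to 4.94% ± 0.06 in GCN2KO unwounded libraries and from 3.70% ± 0.01 to 4.84% ± 0.03 after HDW (SD, n = 5), ratios of 1.30 and 1.31. The share of 5p went from 0.569% ± 0.01 to 0.689% ± 0.008 in unwounded cells and from 0.551% ± 0.006 to 0.701% ± 0.007 after HDW (SD, n = 5), ratios of 1.21 and 1.27. These shares weight a gene by its counts, whereas the medians count each gene once. By share, 9q had a larger ratio than either arm of chromosome 5 in unwounded cells, 1.35 (2.94% in WT and 3.98% in GCN2KO libraries), while the median log2 fold change of its genes was 0.02. After HDW 5q and 5p had the largest ratios, followed by 9q with 1.19.

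**Figure D2:**
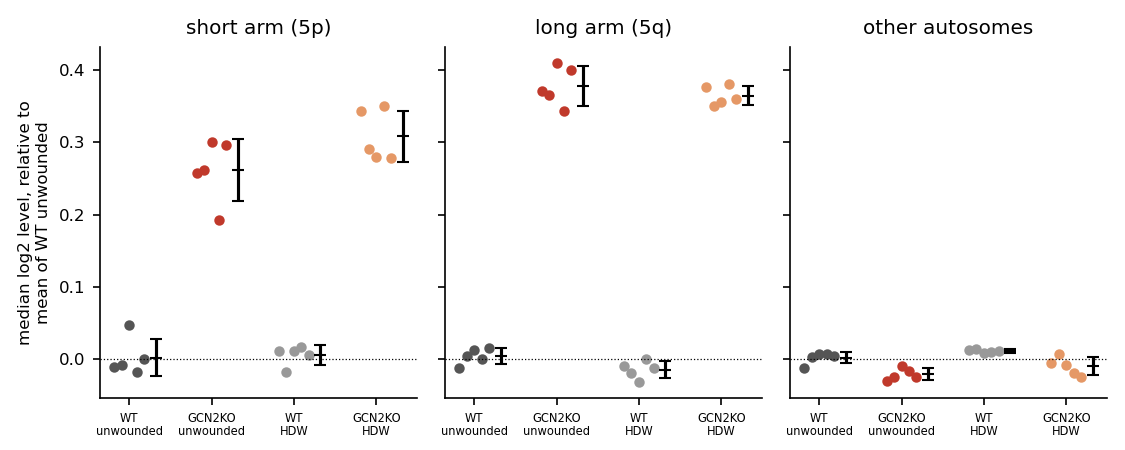
Median log2 level of the tested genes of 5p, 5q and all other autosomes in each library (y axis, relative to the mean of WT unwounded), by group (x axis); points are libraries, and the bar beside them is the mean with SD (n = 5). The GCN2KO libraries lie at 0.34 to 0.41 on 5q and 0.19 to 0.35 on 5p, while all groups lie near 0 on the other autosomes.

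Genes spread around the shifted centre about as widely as genes elsewhere spread around 0. The quartiles of the log2 fold change lay at -0.0025 and 0.76 on 5q and at -0.42 and 0.38 on the other autosomes in unwounded cells. After HDW the quartiles were 0.07 and 0.74 on 5q and -0.40 and 0.33 on the other autosomes. On 5p they were -0.15 and 0.60 in unwounded cells and -0.02 and 0.57 after HDW. All 5 GCN2KO libraries lay above all 5 WT libraries for 303 of 583 genes of chromosome 5 in unwounded cells, 52.0%, where this held for 26.3% of all genes tested. After HDW it held for 352 of 594 genes, 59.3%, beside 27.9% of all genes tested. With a log2 fold change of at least 1 and an adjusted p of at most 0.05, 92 of 583 genes were called higher in unwounded GCN2KO cells, 15.8%, beside 8.21% of all genes tested. Lower calls numbered 28, 4.80%, beside 8.22%. After HDW 69 of 594 were called higher, 11.6%, beside 7.10%, and 25 lower, 4.21%, beside 7.83%. The choice of the chromosome used this contrast, so these shares repeat the shift in another form.

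The shift was present in every 10 Mb window that could be measured, on both arms, but not in every band. The chromosome was divided into windows of 10 Mb, split at the centromere, and 18 of them held at least 5 tested genes, 4 on 5p and 14 on 5q, with none between 20 and 30 Mb. In all 18 the median log2 fold change was above 0, from 0.14 to 0.74 in unwounded cells and from 0.21 to 0.68 after HDW. In each of the 18, in each state, the level of all 5 GCN2KO libraries exceeded that of all 5 WT libraries. On the other autosomes this held for 57 of 267 windows, 21.3%, in unwounded cells, for 62, 23.2%, after HDW, and for 35 in both states. The quartiles of the window medians were 0.27 and 0.44 on chromosome 5 and -0.09 and 0.12 on the other autosomes in unwounded cells, and 0.29 and 0.45 against -0.09 and 0.11 after HDW. These ranges are of similar width on chromosome 5 and elsewhere.

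**Figure D3:**
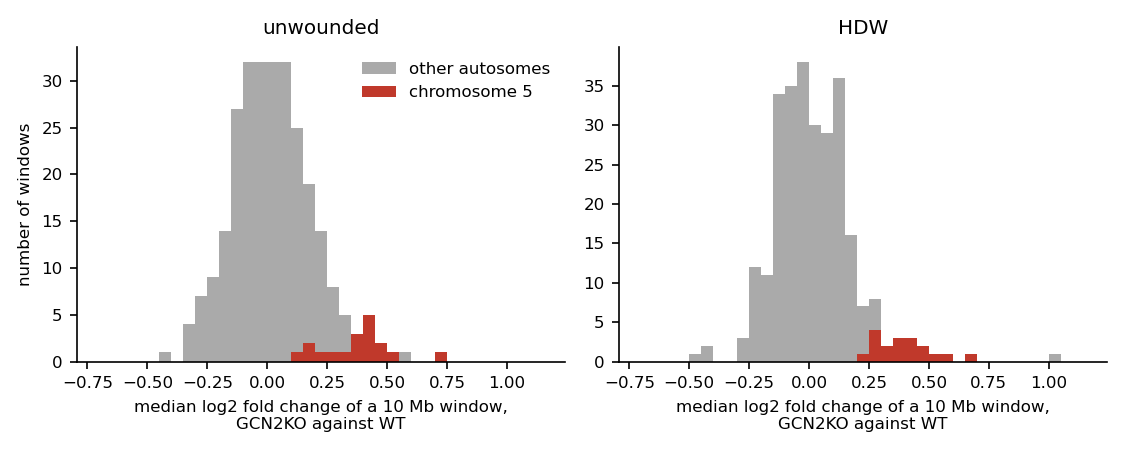
Number of 10 Mb windows (y axis) by the median log2 fold change of GCN2KO against WT in the window (x axis), in unwounded cells (left) and after HDW (right), for chromosome 5 (red, 18 windows) and the other autosomes (grey, 267 windows, drawn behind). All windows of chromosome 5 lie above 0, and the other windows centre on 0.

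The height was not the same everywhere. The highest window was 110 to 120 Mb, with a median of 0.74 in unwounded and 0.68 in wounded cells over 28 genes. The lowest in unwounded cells were 140 to 150 Mb and 150 to 160 Mb, with 0.15 over 78 genes and 0.14 over 43 genes, and these were 0.29 and 0.27 after HDW. On 5p the windows in order from the end of the arm had medians of 0.20, 0.19, 0.26 and 0.36 in unwounded cells and 0.39, 0.38, 0.31 and 0.21 after HDW. The SD of these window levels over the 5 GCN2KO libraries was 0.066 to 0.13 in unwounded cells and 0.042 to 0.076 after HDW. The differences between windows were not tested. A running median over 41 genes within an arm went from 0.04 at PCDHGA1 to 0.72 at TRIM36 on 5q and from 0.16 at FASTKD3 to 0.44 at RETREG1 on 5p in unwounded cells. After HDW it went from 0.14 at PPP2R2B to 0.63 at APC on 5q and from 0.12 at NNT to 0.48 at CCDC127 on 5p. PCDHGA1 lies among the clustered protocadherins of the 140 to 150 Mb window. The 24 of these tested in each state had a median of 0.02 in unwounded cells and 0.37 after HDW. Some of them share exons, so their values are not independent. Their part in the low values there was not tested.

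**Figure D4:**
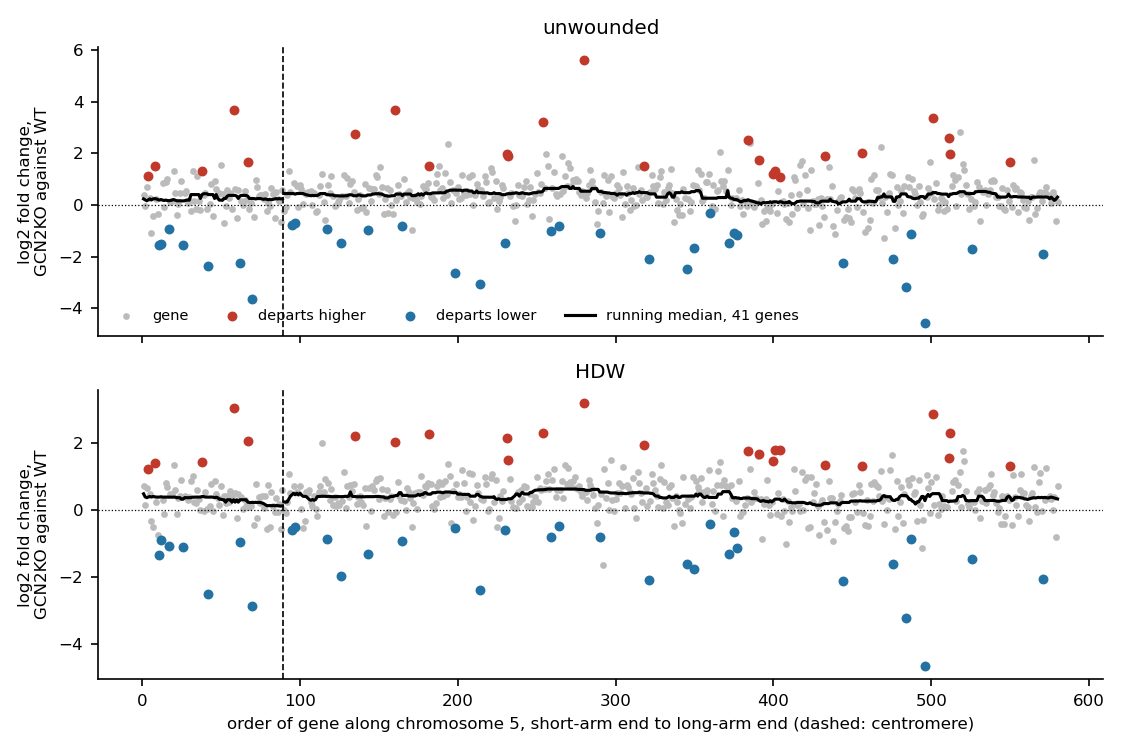
Log2 fold change of GCN2KO against WT (y axis) for the 580 genes tested in both states in their order along chromosome 5 (x axis), in unwounded cells (top) and after HDW (bottom); the black line is the running median over 41 genes within an arm, red and blue points are genes that departed from their neighbours by at least 1 in both states, and the dashed line is the centromere. The running median stays above 0 on both arms in both states.

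By band, the highest median was in 5q22.3, with 1.04 in unwounded cells and 0.85 after HDW, and all 8 tested genes were above 0 in both states with no overlap between GCN2KO and WT libraries. The 8 genes, named here because the band stood out, were TRIM36 (1.91 and 0.85 in the 2 states), PGGT1B (0.54 and 0.36), CCDC112 (1.11 and 1.36), FEM1C (0.75 and 0.78), TMED7 (1.44 and 0.85), TMED7-TICAM2 (1.64 and 1.27), ATG12 (0.74 and 0.68) and AP3S1 (0.97 and 0.87). TMED7 encodes a cargo receptor of the early secretory pathway, ATG12 a conjugation protein of autophagy and AP3S1 a subunit of a vesicle coat. TMED7-TICAM2 is a readthrough gene with 93.5% of its exonic bases shared with other genes, so their counts are not independent. The neighbouring band 5q22.1 had medians of 0.72 and 0.65 over 8 genes.

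The lowest bands of 5q lay side by side. In 5q33.1 the median was 0.0073 in unwounded cells and 0.09 after HDW, with 9 of 18 genes above 0 in each, and the levels of GCN2KO and WT libraries overlapped in both states. In 5q32 it was 0.10 and 0.19 over 24 genes, also with overlap. In 5q33.1 genes on both sides of 0 stood next to each other, also named after their values were seen. ANXA6, an annexin, had 2.03 and 1.32 in the 2 states and ATOX1, a copper chaperone, 1.02 and 0.77, while GM2A, a cofactor of ganglioside breakdown, had -1.04 and -0.46, FAT2, an epidermal protocadherin, -0.90 and -0.48 and SPARC, a matrix protein, -0.58 and -0.18. RPS14, a ribosomal protein gene in this band, had -0.16 and -0.63. The next bands, 5q33.2 and 5q33.3, had medians of 0.40 and 0.48 in unwounded and 0.42 and 0.48 in wounded cells. On 5p every band with at least 5 tested genes had a median above 0, from 0.16 to 0.54 in unwounded and 0.11 to 0.43 in wounded cells, and in 5p12 the libraries of the 2 genotypes overlapped in unwounded cells.

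The shift was present at all expression levels on 5q and was not seen among the weakly expressed genes of 5p. With autosomal genes split by mean level into 3 classes of equal size, the median of 5q in unwounded cells was 0.32 in the lowest class (156 genes), 0.38 in the middle (149 genes) and 0.43 in the highest (186 genes). After HDW these were 0.37, 0.39 and 0.41. On 5p the lowest class (29 genes) had -0.16 in unwounded cells and -0.05 after HDW, where the middle and highest classes (30 genes each) had 0.25 and 0.44, then 0.31 and 0.41. The 3 classes of the other autosomes had -0.05, -0.06 and 0.05 in unwounded cells. By exonic length the 3 classes of chromosome 5 had 0.45, 0.37 and 0.33 from short to long in unwounded cells and 0.40, 0.36 and 0.40 after HDW.

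The genes with the most counts per kilobase of exon in WT unwounded cells did not all follow the shift. On 5p these were RPL37, a ribosomal protein gene, BASP1, a membrane-associated cytoskeletal protein gene, and TARS1. RPL37 had normalized counts of 25785, 25652, 27343, 24514 and 26526 in WT unwounded and 35332, 30364, 37729.6, 29168 and 35452 in GCN2KO unwounded replicates, a log2 fold change of 0.38 (SE 0.079). BASP1 had 3829.9 ± 183 in WT and 3427 ± 229.8 in GCN2KO unwounded libraries (SD, n = 5) with overlapping groups, and log2 fold changes of -0.16 and 0.04 in the 2 states. TARS1 had the largest difference of the 3, described with its list. On 5q they were RACK1, RPS23 and RPS14, a scaffold protein of the ribosome and a pair of ribosomal proteins. RACK1 lay lower in every GCN2KO library, with 56703, 56458, 60396, 55942 and 58118 in WT and 42420.1, 36158, 39607, 33712 and 36986 in GCN2KO unwounded replicates and -0.60 and -0.80 on the log2 scale. RPS23 had 0.38 and 0.11, with overlap after HDW. RPS14 varied widely in unwounded GCN2KO cells, with 35409, 26747, 43323, 27569.9 and 43929.6, beside 38323, 39199.7, 40875, 38384 and 41468 in WT unwounded replicates. GCN2KO unwounded replicates 1, 2 and 4 were below every WT unwounded library and replicates 3 and 5 above.

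Genes that departed from their neighbours were then sought. A departure is the log2 fold change of a gene minus the median of the 10 nearest tested genes on each side, within the arm. By a departure of at least 1 in the same direction in both states, 24 of 580 genes departed higher (5 on 5p, 19 on 5q) and 33 lower (7 on 5p, 26 on 5q). These were 4.14% and 5.69% of the genes, where the same rule gave 508 higher and 646 lower among 11713 genes of other autosomes, 4.34% and 5.52%. A further 51 genes departed in 1 state only, and none departed in opposite directions. The genes just inside the threshold were IQGAP2, with departures of 1.05 in unwounded and 1.71 in wounded cells, and FST, with -1.20 and -1.02. Just outside were ENC1, with -1.32 and -0.996, and SPINK5, with -0.96 and -1.06. RefSeq windows were found for 22 of the higher and 32 of the lower genes. A TATA box occurred in 22.9% of the 35 windows of the higher genes and 12.2% of the 41 windows of the lower genes. Over all windows the share was 11.5%, and over those of chromosome 5 genes 8.72%. An AP-1 element occurred in 2.86% of the higher and 7.32% of the lower windows, and a C/EBP-ATF element in 5.71% and 2.44%. A CArG box occurred in 0% and 4.88%. A gene can have several windows, and these shares were not tested.

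The 5 genes furthest above their neighbours were PRR16, IL7R, SLIT3, MAP1B and TSLP. In WT unwounded libraries PRR16 held 0 to 7 reads, IL7R 0 to 2 and SLIT3 3 to 13. In unwounded cells these genes passed the filter on low counts only with their GCN2KO libraries, so an upward departure is tied to their being tested. The tie also holds for IL7R after HDW, with 3 to 6 reads in WT HDW libraries. For IQGAP2 it holds in both states, with 5 to 6 reads in WT unwounded and 1 to 6 in WT HDW libraries. PRR16 (chr5:120464300-120687332, 5q23.1), a proline-rich protein gene, had normalized counts of 1.99, 0, 3.62, 6.5 and 4.82 in WT unwounded and 188, 205, 209.6, 212 and 191 in GCN2KO unwounded replicates. After HDW it had 7.59, 42.9, 11, 14 and 15.6 in WT and 182, 181, 148, 152 and 176 in GCN2KO replicates. The groups did not overlap, and the log2 fold change was 5.62 (SE 0.22) in unwounded cells and 3.19 (SE 0.28) after HDW, although WT unwounded libraries held only 0 to 7 reads. WT HDW replicate 2 lay far above the other WT HDW libraries.

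IL7R (chr5:35852695-35879603, 5p13.2) and TSLP (chr5:111070062-111078026, 5q22.1) belong to one signalling unit, since IL7R is a subunit of the receptor for TSLP, a cytokine that keratinocytes release. IL7R had 3.97, 1.78, 2.42, 0 and 0.964 normalized counts in WT and 12.5, 21.5, 30.7, 21 and 17.7 in GCN2KO unwounded replicates, then 4.22, 5.05, 2.53, 3.99 and 3.46 and 43.4, 31, 32.7, 36.8 and 20.1 after HDW. It rested on few reads, 0 to 2 in WT unwounded and 11 to 35 in GCN2KO unwounded libraries, and its log2 fold change was 3.68 (SE 0.47) in unwounded cells and 3.05 (SE 0.27) after HDW. TSLP had 29.8, 41, 47.1, 46.5 and 34.7 in WT and 348, 342, 388, 336 and 448 in GCN2KO unwounded replicates. After HDW TSLP had 53.1, 85.8, 62.4, 63.8 and 67.5 in WT and 301, 336, 362, 323 and 321 in GCN2KO replicates. Every GCN2KO library exceeded every WT library for both genes, and the log2 fold change of TSLP was 3.20 (SE 0.13) in unwounded cells and 2.30 (SE 0.11) after HDW.

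SLIT3 (chr5:168661740-169301139, 5q34), a secreted guidance ligand of ROBO receptors, had 5.96, 12.5, 6.04, 12.1 and 8.67 normalized counts in WT and 89.8, 116, 93.8, 105 and 81.1 in GCN2KO unwounded replicates. After HDW the values were 2.53, 17.7, 11, 12 and 7.78 and 74.2, 76.1, 67.1, 63.5 and 92.9. The groups were separate in both states, with a log2 fold change of 3.38 (SE 0.21) in unwounded cells and 2.88 (SE 0.26) after HDW. MAP1B (chr5:72107234-72209565, 5q13.2), a microtubule-associated protein, had 165, 157, 89.4, 181 and 163 in WT and 1609, 3043, 1342, 2221 and 1553 in GCN2KO unwounded replicates. After HDW it had 380.2, 708, 545, 439.7 and 456 in WT and 2118, 2101, 2136, 1993 and 1932 in GCN2KO replicates. Its log2 fold change was 3.69 (SE 0.23) in unwounded cells and 2.02 (SE 0.12) after HDW, the libraries of unwounded GCN2KO cells ranged widely, and the smaller difference after HDW went with higher WT levels.

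The 5 genes furthest below their neighbours were TENM2, ADRA1B, FYB1, EDIL3 and CDH10, of which TENM2, EDIL3 and CDH10 encode adhesion proteins. TENM2 (chr5:166979029-168264157, 5q34), a teneurin, had 445, 410.4, 388, 408 and 391 normalized counts in WT and 21.6, 15.3, 13.2, 17.7 and 17.7 in GCN2KO unwounded replicates. After HDW it had 347, 367, 360.3, 305 and 355 in WT and 12.5, 12.5, 11.7, 10.03 and 20.1 in GCN2KO replicates. WT and GCN2KO libraries did not overlap in either state, and the log2 fold change was -4.56 (SE 0.12) in unwounded cells and -4.67 (SE 0.13) after HDW. SLIT3, which departed upward, lies in the same band, 5q34.

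ADRA1B (chr5:159865080-159973012, 5q33.3), an adrenergic receptor gene, had 33.8, 42.8, 35, 40.9 and 32.8 in WT and 4.55, 6.13, 5.26, 2.52 and 2.53 in GCN2KO unwounded replicates, then 44.7, 63.1, 47.3, 44.9 and 37.2 and 2.5, 2.51, 6.71, 5.02 and 8.62 after HDW. GCN2KO libraries held 3 to 9 reads, all below WT, and the log2 fold change was -3.17 (SE 0.26) in unwounded cells and -3.22 (SE 0.28) after HDW. ADRA1B passed the filter on low counts only with its WT libraries, so a downward departure is tied to its being tested. In unwounded cells KIF20A, described below, also passed only with its WT libraries. FYB1 (chr5:39105252-39274528, 5p13.1), a signalling adaptor best known from T cells, had 5606, 4907, 5923, 4987 and 5183 in WT and 626, 409, 323, 340.4 and 414 in GCN2KO unwounded replicates. After HDW FYB1 had 4723, 3351, 3658, 4439.8 and 4055 and 416, 490.2, 471, 528 and 883, with GCN2KO HDW replicate 5 above the other 4 but below every WT library. Its log2 fold change was -3.66 (SE 0.15) in unwounded cells and -2.86 (SE 0.17) after HDW.

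EDIL3 (chr5:83940554-84384880, 5q14.3), a secreted integrin-binding protein, had 95.4, 85.7, 106, 79 and 94.5 in WT and 13.6, 6.13, 11.4, 9.25 and 12.7 in GCN2KO unwounded replicates, and 54, 39.5, 38.8, 62.8 and 51.9 and 10.8, 6.69, 10.1, 20.1 and 2.87 after HDW. The groups were apart in both states, with -3.06 (SE 0.18) in unwounded cells and -2.39 (SE 0.29) after HDW on the log2 scale. CDH10 (chr5:24487100-24644978, 5p14.2), a type II cadherin, had 227, 257, 302, 265 and 265 in WT and 43.2, 50.6, 50.9, 56.3 and 53.2 in GCN2KO unwounded replicates, and 321, 252, 268, 245 and 281 and 45.9, 50.2, 44.5, 35.1 and 57.5 after HDW. Its log2 fold change was -2.36 (SE 0.11) in unwounded cells and -2.53 (SE 0.11) after HDW, and WT and GCN2KO libraries did not overlap.

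TERT (chr5:1253147-1295068, 5p15.33), the telomerase catalytic subunit, also departed downward. It had 53.7, 26.8, 42.3, 26 and 26 normalized counts in WT and 11.4, 15.3, 11.4, 12.6 and 8.44 in GCN2KO unwounded replicates, then 28.7, 39.5, 41.4, 30.9 and 33.7 and 21.7, 25.1, 18.5, 10.03 and 13.4 after HDW. All GCN2KO libraries lay below all WT libraries in each state, with a log2 fold change of -1.53 (SE 0.26) in unwounded cells and -0.91 (SE 0.21) after HDW on 6 to 49 reads per library. Reads from the endogenous gene and from the hTERT transgene of the line cannot be told apart in gene counts.

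**Figure D5:**
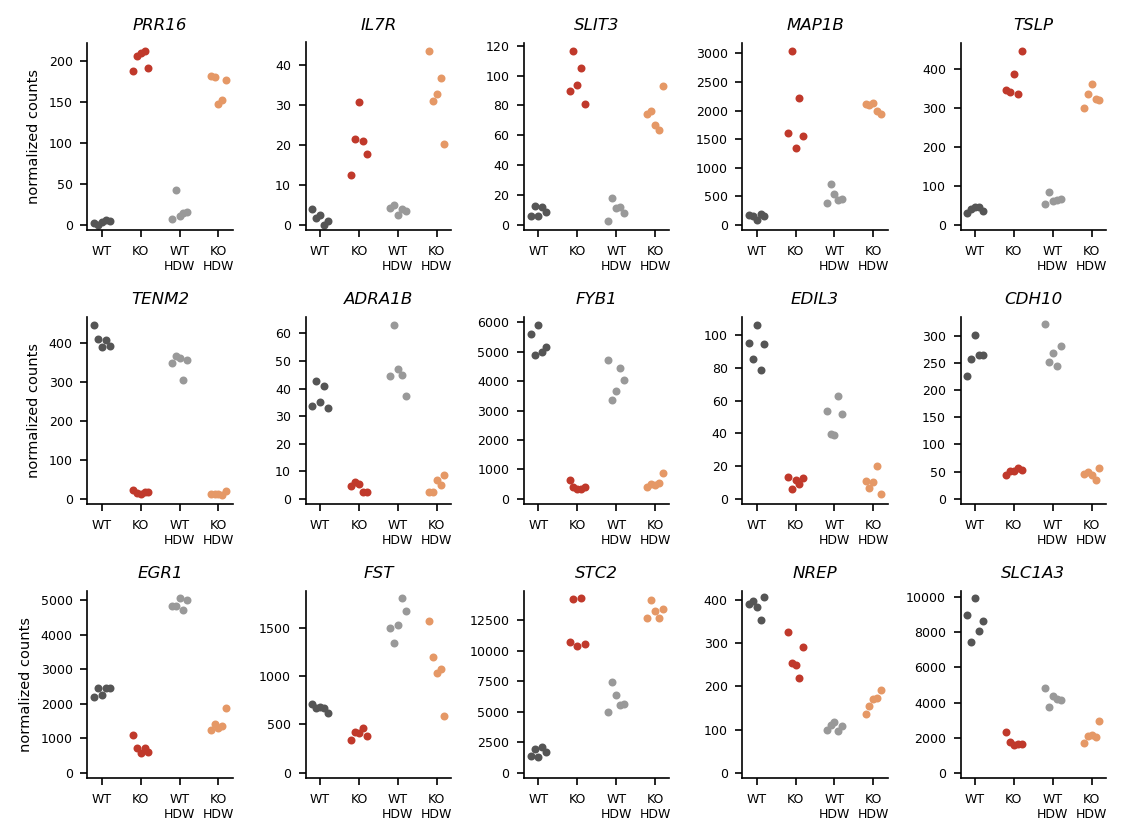
Normalized counts (y axes, separate for each gene and starting near 0) of 15 chromosome 5 genes in each library (points) by group (x axes; KO, GCN2KO). The top row holds the 5 genes furthest above their neighbours, the middle row the 5 furthest below, and the bottom row 5 genes whose level changed with HDW in WT cells.

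Genes were then read by role, in lists of chromosome 5 genes. For reference, the median log2 fold change of GCN2KO against WT over all tested genes of the chromosome was 0.37 in unwounded cells (583 genes) and 0.39 after HDW (594 genes), and over all autosomal genes tested it was 0.0026 and -0.0012. Of 22 aminoacyl-tRNA synthetase and translation factor genes, 21 were tested, with 17 above 0 and a median of 0.48 in unwounded cells and 16 above 0 and 0.32 after HDW. TARS1 had 6357, 7537, 6495, 7543 and 7496 normalized counts in WT and 20257, 20254, 23024, 19563 and 21049.6 in GCN2KO unwounded replicates. After HDW it had 10980.3, 12176, 11766, 11519 and 11469 in WT and 19192, 19155, 19158, 19248 and 18278 in GCN2KO replicates. The groups were apart in both states, and the log2 fold change of TARS1 was 1.56 (SE 0.074) in unwounded cells and 0.71 (SE 0.039) after HDW. LARS1 had 1.35 (SE 0.07) and 0.99 (SE 0.051). The lowest in unwounded cells were HARS2, the mitochondrial histidyl-tRNA synthetase, with -0.33 and -0.06, and EIF4EBP3, an inhibitor of cap-dependent translation, with -1.46 and -1.33, whose exons share 73.2% of their bases with another gene.

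Of 21 amino acid and one-carbon genes, 11 were tested, 8 were above 0 with a median of 0.47 in unwounded cells, and 7 with 0.28 after HDW. DMGDH, a choline breakdown enzyme, had 2.37 and 1.38 and GFPT2, of hexosamine synthesis, 0.71 and 1.26, the latter with overlapping groups in unwounded cells. ALDH7A1, a lysine breakdown enzyme, had -1.08 and -0.81 and SLC1A3, the glutamate and aspartate transporter EAAT1, -2.26 and -0.96. The oxidative stress and mitochondrial list also holds genes of other roles, such as DAP and ERAP2. All 16 of its genes were tested, with a median of 0.63 and 12 above 0 in unwounded cells. After HDW the median was 0.43, with 15 above 0. UQCRQ, a subunit of respiratory complex III, had 1.48 and 1.13 and DAP, a death-associated protein, 1.31 and 1.01. ERAP2, a peptide-trimming aminopeptidase, had -0.60 and 0.05 and NNT, a mitochondrial source of NADPH, -0.66 and -0.56. Of 13 sterol and lipid genes, 12 and 13 were tested in the 2 states, with 9 and 11 above 0 and medians of 0.33 and 0.44. STARD4, a sterol carrier, had 1.53 and 1.08, ELOVL7, a fatty acid elongase, 0.78 and 0.82, ACSL6, an acyl-CoA synthetase, -0.44 and 0.71 with overlap in both states, and GM2A -1.04 and -0.46.

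Of 28 cell cycle and DNA repair genes, 27 were tested, with 20 above 0 and a median of 0.25 in unwounded cells and 16 above 0 and 0.30 after HDW. CCNH, a cyclin of the CDK-activating kinase, had 1.13 and 0.98 and RAD17, a checkpoint clamp loader, 1.09 and 0.94. KIF20A, a mitotic kinesin, had -2.47 and -1.61 on 2 to 9 reads per library in GCN2KO unwounded and 4 to 18 in GCN2KO HDW cells. Of 23 transcription factor genes, 16 and 17 were tested, with 11 and 14 above 0 and medians of 0.17 and 0.33. HAND1 had 2.26 and 1.18 on 0 to 6 reads in WT unwounded libraries and PITX1 1.38 and 0.74. IRX4 had -0.92 and -1.07 and TCF7, a mediator of WNT signalling, -2.09 and -2.10.

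Of 30 matrix, adhesion and guidance genes, 16 were tested in unwounded cells, 7 were above 0 and the median was -0.31; after HDW 10 of 18 were above 0 with a median of 0.07. P4HA2, a collagen prolyl hydroxylase, had 1.28 and 1.28 and FBN2, fibrillin-2, 1.14 and 1.48, while TENM2 and EDIL3 were the lowest. Of the 53 clustered protocadherins of 5q31.3, 24 were tested in each state, with 13 above 0 and a median of 0.02 in unwounded cells and 20 above 0 and 0.37 after HDW. PCDHAC1 had 2.53 and 1.77 and PCDHAC2 2.41 and 1.22, PCDHGB3 -0.64 and 0.34 and PCDHGB1 -0.72 and -0.88. Members of the PCDHA cluster, and those of the PCDHG cluster, share their last exons, 40.9% to 57.2% of the exonic bases of these 4 genes. Reads there cannot be given to 1 member, so the values of such genes are uncertain.

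The cytokine and receptor list also holds the transcription factor IRF1. Of its 18 genes, 10 were tested, with 7 and 9 above 0 and medians of 0.35 and 0.48. After IL7R and TSLP at the top, the lowest in unwounded cells were IRF1, an interferon-induced transcription factor, with -0.18 and 0.54, and CD14, a co-receptor for bacterial lipopolysaccharide, with -1.10 and -0.67. Of 20 growth factor, receptor and early target genes, 10 and 13 were tested, with 6 above 0 in each state and medians of 0.09 and -0.04. STC2, a secreted stanniocalcin, had 2.83 and 1.14 and DUSP1, a phosphatase that inactivates MAP kinases, 1.99 and 2.30. The lowest in unwounded cells were FST, follistatin, an antagonist of activin, with -0.71 and -0.52 and EGR1 with -1.66 and -1.77. Of 7 SPINK family genes, which encode serine protease inhibitors, only SPINK5 passed the filter, with 489.8 ± 39.7 normalized counts in WT and 287 ± 62.7 in GCN2KO unwounded libraries (SD, n = 5) and -0.77 and -0.74 on the log2 scale.

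Wounding moved neither arm as a whole beyond the range of the other arms. The median log2 fold change of HDW against unwounded cells was -0.03 on both arms in WT, and 0.02 on 5p and -0.03 on 5q in GCN2KO cells, where the other 37 arms spanned -0.05 to 0.06 in WT and -0.06 to 0.05 in GCN2KO cells. The interaction, which is the HDW response of GCN2KO minus that of WT cells, had a median of 0.03 on 5p and 0.02 on 5q, with other arms from -0.08 to 0.05. Neither HDW contrast was used to choose the chromosome, so single genes were tested, with adjustment over all genes. The interaction also equals the GCN2KO to WT difference after HDW minus that in unwounded cells, the contrasts behind the choice. Its adjusted p values on chromosome 5 are therefore given as a description. The WT and interaction results share the 10 WT libraries, and the GCN2KO and interaction results the 10 GCN2KO libraries. GCN2KO HDW replicate 5 was the sample apart for 5 of the genes described and GCN2KO unwounded replicate 1 in 4, and some values below are also given without them.

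In WT cells 13 of 575 tested genes of chromosome 5 were higher after HDW, 2.26%, beside 2.62% of all genes tested, and 9 were lower, 1.57%, beside 1.55%. The 5 higher genes with the smallest adjusted p are given first. EGR1 (chr5:138465479-138469303, 5q31.2), an immediate early transcription factor whose promoter with its CArG boxes is shown above, had 2206, 2450.0, 2264, 2464 and 2446 normalized counts in WT unwounded and 4842, 4821, 5060.0, 4708 and 5005 in WT HDW replicates. It rose by 1.04 (SE 0.037, edgeR adjusted p = 2.60e-11) on the log2 scale. FST (chr5:53480626-53487134, 5q11.2) went from 709, 666, 677, 665 and 616 to 1499.7, 1345, 1532, 1812 and 1674, a rise of 1.24 (SE 0.07, edgeR adjusted p = 2.18e-09). SPRY4 (chr5:142310427-142326455, 5q31.3), a feedback inhibitor of receptor tyrosine kinase signalling, went from 17.9, 23.2, 14.5, 19.5 and 29.9 to 160.2, 136, 118, 169 and 131. It rose by 2.73 (SE 0.17, edgeR adjusted p = 6.35e-09). STC2 (chr5:173314723-173328447, 5q35.2) went from 1379, 1963, 1315, 2123 and 1694 to 4956, 7448, 6360.4, 5565 and 5612 and rose by 1.81 (SE 0.13, edgeR adjusted p = 2.02e-08). HBEGF (chr5:140332843-140346603, 5q31.3), an EGF receptor ligand of wounded keratinocytes, went from 359.7, 385, 348, 423 and 377 to 795, 1199, 1140.1, 917 and 992 and rose by 1.41 (SE 0.10, edgeR adjusted p = 2.71e-08). For each of these 5 genes all WT HDW libraries lay above all WT unwounded libraries.

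The 5 lower genes with the smallest adjusted p were NREP, PDE4D, SLC1A3, FAXDC2 and IRF1, and all WT HDW libraries lay below all WT unwounded libraries for each. NREP (chr5:111662621-111997464, 5q22.1), a small protein of neuronal regeneration, went from 389.5, 398, 383, 352 and 406 to 99.5, 111, 117, 96.7 and 107. It fell, with -1.85 (SE 0.073, edgeR adjusted p = 6.34e-11), and shares 22.7% of its exonic bases with another gene. PDE4D (chr5:58969038-60522120, 5q11.2), a cAMP phosphodiesterase, went from 254, 312, 254, 242 and 247 to 55.6, 88.3, 73.4, 56.8 and 71.8, with -1.90 (SE 0.12, edgeR adjusted p = 6.52e-09). SLC1A3 (chr5:36596588-36688334, 5p13.2) went from 8957, 7446, 9953, 8055 and 8656 to 4851, 3743, 4358, 4222 and 4164, with -1.02 (SE 0.073, edgeR adjusted p = 2.59e-08). FAXDC2, a fatty acid hydroxylase domain protein, had -1.31 (SE 0.10, edgeR adjusted p = 5.33e-08) and IRF1 -1.01 (SE 0.091, edgeR adjusted p = 2.61e-07). SLC1A3 and IRF1 lay close to the threshold on the fold change: SLC1A3 was at -0.96 without WT unwounded replicate 3 and -0.97 without WT HDW replicate 2. IRF1 was at -0.94 without WT HDW replicate 4, -0.98 without WT unwounded replicate 2, -0.99 without WT HDW replicate 1 and just short of the threshold without WT HDW replicate 5. IRF1 shares 22.9% of its exonic bases with another gene.

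In GCN2KO cells 2 of 602 tested genes were higher after HDW, 0.332%, beside 0.475% of all genes tested, and 1 was lower, 0.166%, beside 0.196%. Libraries varied more here, with a biological coefficient of variation of 0.108, beside 0.0587 for HDW in WT. The numbers of calls in the 2 genotypes were thus not reached with equal precision. By chi-squared per degree of freedom, GCN2KO unwounded replicates 2 and 4 (7.56) and 3 and 5 (9.49) were closer than the other pairs of that group (21.8 to 56.6). FST went from 344, 423, 410.5, 468 and 384 to 1566, 1195, 1036, 1072 and 592 normalized counts, with 1.44 (SE 0.19, edgeR adjusted p = 4.23e-04). GCN2KO HDW replicate 5 had the lowest FST value of its group, and without it the change was 1.59. SPRY4 went from 54.6, 73.6, 66.7, 80.7 and 43.1 to 169, 156, 129, 104 and 125, with 1.13 (SE 0.17, edgeR adjusted p = 9.76e-04). EGR1 went from 1107, 729.6, 581, 718 and 609.6 to 1249, 1402, 1292, 1356 and 1870.3, with 0.95 (SE 0.16, edgeR adjusted p = 0.00186), just under the fold threshold. EGR1 was at 1.13 (adjusted p = 2.27e-04 by edgeR) without GCN2KO unwounded replicate 1, past the threshold, and at 0.83 without GCN2KO HDW replicate 5. The count of higher genes was then 3 without GCN2KO unwounded replicate 1, and also 3 without GCN2KO unwounded replicate 4. For these 3 genes all GCN2KO HDW libraries exceeded all unwounded GCN2KO libraries. FBLL1, a fibrillarin-like gene, was the lower gene, with 19.3, 23, 25.4, 16.8 and 33.8 and 10.8, 16.7, 10.1, 5.02 and 12.4 and -1.03 (SE 0.27, edgeR adjusted p = 0.0159). It rested on 3 to 40 reads per GCN2KO library and was at -0.85 without GCN2KO unwounded replicate 5, -0.98 without GCN2KO HDW replicate 3 and -0.91 without GCN2KO HDW replicate 4. The count of lower genes was 0 without any of these 3 libraries in turn and 2 without GCN2KO unwounded replicate 2 or GCN2KO HDW replicate 5.

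By list, the growth factor, receptor and early target genes held the most wounding calls in WT cells. Of 11 tested, 5 were higher (EGR1, FST, HBEGF, SPRY4 and STC2) and 1 lower (GHR, the growth hormone receptor). Over all genes tested the shares were 2.62% higher and 1.55% lower. The list holds early targets and was written with earlier results of these data known, so its place among the lists is a description. Its median log2 fold change was 0.98, beside -0.03 over the 575 tested genes of the chromosome and 0.0033 over all autosomal genes tested. In GCN2KO cells 2 of 13 genes of this list were higher (FST and SPRY4), beside 0.475% of all genes tested. The list then had a median of 0.21, beside -0.02 over the chromosome and 0.0058 over all autosomal genes. Of the clustered protocadherins, 4 of 21 were above 0 in WT with a median of -0.30, and 1, PCDHAC2, was called higher. In GCN2KO cells their median was -0.05 over 29 genes, with 14 above 0. The 21 translation genes, 16 genes of the oxidative stress and mitochondrial list and 18 matrix, adhesion and guidance genes tested in WT cells had medians of -0.03, -0.09 and -0.05, with 10, 7 and 7 genes above 0.

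Of the tested genes, the HDW response of GCN2KO and WT cells differed for 19 of 612, 8 with a higher response in GCN2KO cells (1.31%, beside 1.16% of all genes tested) and 11 with a lower one (1.80%, beside 2.15%). The 3 lower with the smallest adjusted p were STC2, LMNB1 and MAP1B, each of which rose with HDW in WT cells and overlapped between the states in GCN2KO cells. STC2 had 10762, 14257, 10393, 14302 and 10571 normalized counts in GCN2KO unwounded and 12675, 14134, 13301, 12672 and 13404 in GCN2KO HDW replicates, with overlap, and a change with HDW of 0.14 (SE 0.1, edgeR adjusted p = 0.304). The interaction for STC2 was -1.68 (SE 0.17, edgeR adjusted p = 2.09e-07). LMNB1, a nuclear lamin gene, had 75.5, 60.7, 106, 49.2 and 66.5 and 346, 211, 254, 371 and 291 in WT unwounded and WT HDW replicates. In GCN2KO cells LMNB1 had 79.6, 81.2, 68.4, 84.1 and 65.9 and 102, 105, 91.4, 83.6 and 85.2, and its interaction was -1.73 (SE 0.24, edgeR adjusted p = 1.53e-05). Its WT HDW libraries alone stood high. MAP1B, whose values are given above, had an interaction of -1.66 (SE 0.28, edgeR adjusted p = 1.06e-04). It had been picked above by its GCN2KO to WT differences. The interaction of SPRY4, which rose in both genotypes, was -1.61 (SE 0.27, edgeR adjusted p = 1.16e-04). For EGR1 it was -0.10 (SE 0.17, edgeR adjusted p = 0.709).

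Of the 8 genes with a higher response in GCN2KO cells, the 3 with the smallest adjusted p were NREP, SLC1A3 and ANKRD33B. NREP had 325, 253, 248, 220.2 and 291 in GCN2KO unwounded and 136, 155, 170.3, 174 and 192 in GCN2KO HDW replicates, a change of -0.69 (SE 0.12, edgeR adjusted p = 0.00239) that was smaller than in WT, with an interaction of 1.15 (SE 0.14, edgeR adjusted p = 3.72e-06). SLC1A3 had 2339, 1754, 1604, 1618 and 1629 and 1689, 2119, 2138, 2056 and 2976, with overlap, and its interaction was 1.31 (SE 0.17, edgeR adjusted p = 5.03e-06). Every unwounded GCN2KO library lay below every WT HDW library. The interaction of SLC1A3 was 1.42 without GCN2KO unwounded replicate 1, the highest of its group, and 1.18 without GCN2KO HDW replicate 5. ANKRD33B, an ankyrin repeat protein, had 199, 218, 258, 226 and 222 and 115, 126, 118, 125 and 157 in WT and 205, 229.9, 156, 214 and 165 and 226, 227, 245, 231 and 240.4 in GCN2KO cells, and an interaction of 1.10 (SE 0.15, edgeR adjusted p = 9.44e-06). It was lower after HDW in WT and overlapped between the states in GCN2KO cells.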

How the data were processed

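RNA from NTERT cells was sequenced in 20 libraries. The authors trimmed the reads with Trimmomatic, aligned them to GRCh38 with STAR and counted them per gene with featureCounts, and used DESeq2 for their own comparisons. The deposited files hold raw counts, 1 per library, for 57500 Ensembl identifiers. Strandedness and the annotation release are not given in the sources used here. Totals were 14083504 to 34611570 counts per library. GENCODE placed 56410 identifiers, and 1090 did not match. Band boundaries were written from general knowledge of GRCh38 and rounded, so a gene near one may belong to its neighbour.

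Libraries were grouped by their labels. Each comparison was fitted over all genes on its own samples, with the interaction fitted over all 20, in edgeR 4.0.16 (R 4.3.3), with TMM scaling, filterByExpr (minimum count 10, minimum total count 15), the quasi-likelihood test and Benjamini-Hochberg adjustment. Genes were called at an absolute log2 fold change of 1 or more with an adjusted p up to 0.05. Normalized counts are counts scaled by TMM library size, and SE is the standard error of a log2 fold change. Windows, bands and running medians used 10 Mb, at least 5 genes and 41 genes. Arms needed 20 genes. The fits were tested on simulated data. Figures and sequence matches used Python 3.11.

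The genes named were EIF2AK4 and TERT, the 5 that departed furthest from neighbours in each direction, the 2 highest and 2 lowest of each list in unwounded cells, the 5 smallest adjusted p in each direction for HDW in WT and the 3 smallest for HDW in GCN2KO and the interaction, and the 3 with the most counts per kilobase on each arm. The members, lists and rules were chosen with earlier results of these data known. 1 of the gene lists is not reported here.

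Alternatives were DESeq2 1.42.0 and its size factors, library size alone, TMM outside chromosome 5, no filter, a minimum mean of 50 counts, 1 fit of all samples, a replicate block, each library left out, genes sharing under 20% of exonic bases, means over genes, every biotype, the adjusted p alone, and 5 or 20 neighbours. Libraries with the same number did not deviate together, so no pairing was used.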

Additional observations from a re-analysis of the deposited data

Results flagged for a closer look

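A library stood apart from the other 4 of its group by Dixon's test in 14 of 140 combinations of gene or arm and group, where chance gives about 1 in 20. GCN2KO HDW replicate 5 was the highest for TENM2 (20.1 normalized counts), FYB1 (883), EGR1 (1870.3) and PDE4D (198) and the lowest for TARS1 (18278). GCN2KO unwounded replicate 1 was the highest for EGR1 (1107), HBEGF (674), SLC1A3 (2339) and IRF1 (2068). Of the WT libraries, WT unwounded replicate 3 was highest for the 5p level (0.0465 on the log2 scale) and lowest for MAP1B (89.4). WT unwounded replicate 2 was highest for PDE4D (312), WT HDW replicate 2 for PRR16 (42.9) and WT HDW replicate 5 for ANKRD33B (157).

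The HDW response differed between GCN2KO and WT cells by the edgeR interaction test for 19 genes, of which the 3 with the smallest adjusted p in each direction follow. As stated above, the interaction is not independent of the choice of the chromosome. On the log2 scale the difference was 1.15 for NREP, 1.31 for SLC1A3 and 1.10 for ANKRD33B, and it was -1.68 for STC2, -1.73 for LMNB1 and -1.66 for MAP1B.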

How the results depend on the processing

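Over 352 alternative values of arm medians and counts of genes, 318 stayed within the spread between libraries or within 1.5 times the count, 34 moved and 0 changed direction. Of 395 alternatives for single genes in the HDW contrasts and the interaction, 386 kept their side of the threshold and 9 lost it (SLC1A3, IRF1 and FBLL1, given above). Of 2023 for GCN2KO against WT, which carry no test, 18 crossed a log2 fold change of 1 in size, for FBN2 in unwounded cells and TERT, SLC1A3, LARS1, DAP and CCNH after HDW, with values such as 0.96 for FBN2 and -1.06 for TERT. With library size alone, the medians of 5p and 5q were 0.21 and 0.34 in unwounded and 0.38 and 0.44 in wounded cells, and with TMM outside chromosome 5 that of 5q after HDW was 0.42. Relative to the other autosomes the medians were 0.26 and 0.39, then 0.36 and 0.42, in the main analysis. With no filter, the unwounded median of 5p was 0.35, that of 5q after HDW 0.39, lower genes after HDW in WT 15 and genes departing higher 43. With a mean of at least 50 counts, lower genes in GCN2KO HDW were 16, lower genes after HDW in GCN2KO 0, and higher interactions 5, with fewer genes tested. With means over genes, 5p had 0.18 and 0.26 and 5q after HDW 0.36. With every biotype, 5p and 5q after HDW had 0.22 and 0.38. By adjusted p alone, higher and lower genes numbered 351 and 91 for GCN2KO in unwounded and 398 and 89 in wounded cells, 156 and 163 for wounding of WT, 86 and 63 for wounding of GCN2KO cells, and 91 and 83 for the interaction. Leaving out each library gave unwounded 5p medians of 0.21 to 0.27 (lowest without GCN2KO unwounded replicate 5), 5p medians after HDW of 0.31 to 0.37, and 0 to 2 lower genes after HDW in GCN2KO. That count was 2 without GCN2KO unwounded replicate 2 or GCN2KO HDW replicate 5, and 0 without GCN2KO unwounded replicate 5 or GCN2KO HDW replicate 3 or 4. The replicate numbers did not pair the libraries, since at most 1 of 5 same-numbered pairs had a correlation of deviations over 0.1 and the mean correlations were 0.021, 0.036, 0.0034 and -0.092. With the replicate block the medians were 0.24 and 0.38 in unwounded and 0.34 and 0.40 in wounded cells for 5p and 5q, and counts differed by at most 1. The lowest counts limit PRR16, IL7R, SLIT3, ADRA1B, HAND1 and FBLL1. Except where a filter removed genes, the cause of each change was not tested.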
